A study of Mus musculus with 11 samples.

Results

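The extended Fgf23 locus was taken as the stretch of mouse chromosome 6 that holds Fgf23, Fgf6 and Ccnd2 with 100 kb on either side, chr6:126915586-127252193 in the mm10 build, which is 336.6 kb long. Of the 94963 accessible regions in the deposited list, 18 lay in this window. Of these, 3 touched Fgf23 or the 20 kb upstream of its start and serve here as reference values, and 15 lay beyond that segment and are described in full. The regions are numbered 1 to 18 in order along the chromosome, and the numbers have no other meaning.

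Fgf23 encodes a hormone made mainly by osteocytes that lowers phosphate reabsorption and vitamin D activation in the kidney. Fgf6 encodes a paracrine fibroblast growth factor known from skeletal muscle, and Ccnd2 encodes cyclin D2, a partner of the cyclin-dependent kinases that drive cells out of G1. The Fgf23, Fgf6 and Ccnd2 group is thought to be a duplicate of the group that holds Ccnd1, Fgf15, Fgf4 and Fgf3. Open stretches of chromatin mark promoters, enhancers and insulators, which may act on a gene next to them or at a distance.

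Accessibility was measured by ATACseq, in which the Tn5 transposase cuts and tags open DNA, in MPC2 cells, a conditionally immortalised mouse mesenchymal line that is a single clone. The 11 cultures comprised undifferentiated MSC, 3 with vehicle (DMSO) and 3 with FG-4592, and osteocytes, 2 with vehicle and 3 with FG-4592. The paper left out 1 ATACseq sample because of its quality, and the osteocytes with vehicle are labelled as replicates 2 and 3. The osteocytes were differentiated in osteogenic medium at a higher temperature than that at which the MSC were grown. FG-4592 (Roxadustat), which inhibits the HIF prolyl hydroxylases and so mimics hypoxia, was used at 50 uM, vehicle and drug both acted for 48 hours, and the osteocytes had been differentiated for 3 weeks. The list is pooled over cultures that it does not name and gives 1 level per region, taken to be an average log2 CPM (CPM being the cuts in a region relative to the cuts in all listed regions), so no value by culture, no replicate error and no test of drug or cell stage could be given, and the depth of each culture is unknown.

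As a check of the cell labels on the pooled list, 5 of 5 mesenchymal genes (Runx2, Col1a1, Col1a2, Prrx1 and Twist1) had an accessible region within 1000 bp of a transcript start, and so did 1 of 5 osteocyte genes, beside 64.1% of the 21938 protein-coding genes of the annotation. That gene was Dmp1, a matrix protein of osteocytes, at 4.41 log2 CPM, while Sost, Mepe, Phex and Pdpn had no region there. Among 5 genes of other cell types, only Pecam1 had such a region, at 1.89 log2 CPM, and Ptprc, Cdh5, Myod1 and Cdh1 had none. The list cannot tell which culture a region came from.

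The sequences on which the account of the distal regions turns are shown first. They were read from the GRCm38 reference, the assembly that mm10 names, and are written in lower case with the motif matches in capitals. The capitals in region 8 mark a core of the hypoxia response element (HRE, ACGTG or GCGTG, here as the palindrome CACGTG) and a RUNX site (TGTGGT) in the first stretch, and an AP-1 site (TGACTCA or TGAGTCA) in the next. In region 18 they mark the HRE cores, of which the second lies on the opposite strand and therefore reads CACGC. In region 15 they mark RUNX sites, and in regions 3 and 16 a match to the binding motif of CTCF, the insulator protein. Region 8 is the nearest region to Fgf23 on the far side of its upstream window, region 18 is the only region of the window that lies wholly upstream of Ccnd2, region 15 lies in a Ccnd2 intron, and regions 3 and 16 are those with a CTCF match.
Region 8, first stretch, chr6:127034879-127035039, plus strand: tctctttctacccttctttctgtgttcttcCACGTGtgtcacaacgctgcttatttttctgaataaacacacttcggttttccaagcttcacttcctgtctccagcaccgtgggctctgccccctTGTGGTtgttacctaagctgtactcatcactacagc
Region 8, next stretch, chr6:127035182-127035248, plus strand: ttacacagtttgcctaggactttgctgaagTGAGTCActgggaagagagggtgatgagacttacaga
Region 18, chr6:127245860-127246025, plus strand: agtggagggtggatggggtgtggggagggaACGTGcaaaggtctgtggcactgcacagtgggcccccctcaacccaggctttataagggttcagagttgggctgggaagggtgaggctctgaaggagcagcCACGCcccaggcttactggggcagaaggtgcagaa
Region 15, chr6:127142118-127142364, plus strand: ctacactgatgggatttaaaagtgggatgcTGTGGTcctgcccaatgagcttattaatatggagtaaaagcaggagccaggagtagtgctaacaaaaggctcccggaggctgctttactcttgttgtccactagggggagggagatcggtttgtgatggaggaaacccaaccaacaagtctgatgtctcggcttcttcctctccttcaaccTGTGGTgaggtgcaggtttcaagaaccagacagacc
Region 16, chr6:127147840-127147911, plus strand: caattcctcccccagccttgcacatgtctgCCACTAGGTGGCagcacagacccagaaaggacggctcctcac
Region 3, chr6:126955889-126955960, plus strand: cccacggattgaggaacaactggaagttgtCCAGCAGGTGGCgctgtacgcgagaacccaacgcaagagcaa
A match is a description of the letters and not a measured binding site.

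**Figure D1:**
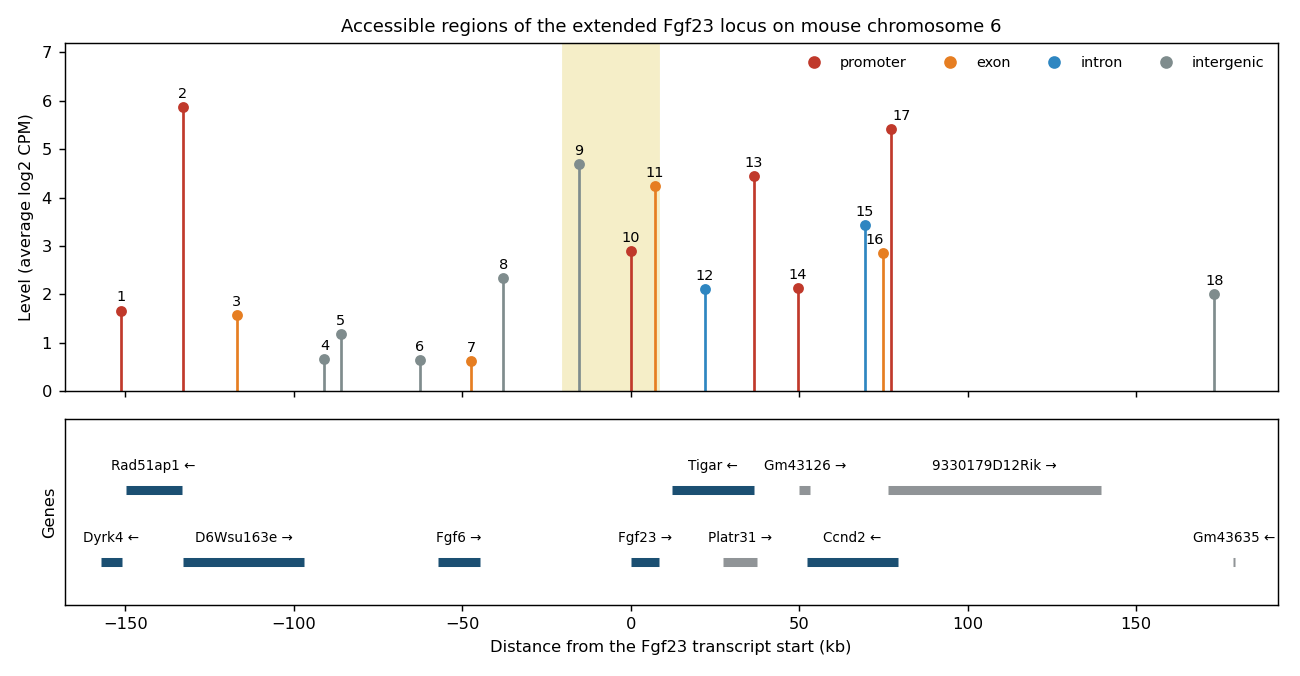
Upper panel: level of each of the 18 regions (average log2 CPM, pooled) against the distance of its midpoint from the Fgf23 start in kb, coloured by position relative to genes, with the segment from 20 kb upstream of Fgf23 to its end shaded. Lower panel: genes in the window, coding genes in blue and non-coding genes in grey, with arrows for the strand and pseudogenes left out. The highest levels sit at region 2 (5.87) and region 17 (5.41), the 4 lowest at regions 4 to 7, upstream of Fgf6 and in its last exon, and no region lies between regions 17 and 18.

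Accessibility across the window was uneven. The 15 regions beyond the Fgf23 segment ranged from 0.61 to 5.87 log2 CPM, with a median of 2.11 beside 2.12 over all 94963 regions. The 3 reference regions had levels of 4.69 (region 9, 15.5 kb upstream of Fgf23), 2.89 (region 10, at the Fgf23 start) and 4.23 log2 CPM (region 11, in exon 3). Of the distal regions, region 2 (5.87) and region 17 (5.41) were above all 3 reference regions on this scale, and region 13 (4.44) was above regions 10 and 11. Each of these lay at the promoter of another gene. Region 15 (3.43), in a Ccnd2 intron, was above region 10. On the log2 scale of CPM per kb of width, region 2 (5.08) stayed above all 3 reference regions. Region 17 (4.23) was then above region 10 (3.45) and below regions 9 (4.61) and 11 (4.34). Regions 13 (4.52) and 15 (3.65) kept their places.

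Wider regions had higher levels. Widths come from peak calling and merging, and whether width raises the level or a strong signal widens the region was not tested. Across the 18 regions, width on a log2 scale and level had a Pearson r of 0.93 and a Spearman rho of 0.90, and across all 94963 regions the values were 0.90 and 0.91. These are correlations across regions of 1 pooled list and carry no test. Each level was therefore also set beside the regions whose width differed by at most 10%, and the share of those with a lower level is given below as a percentile. By this measure 7 of the 15 distal regions were above the median of their width class and 8 were below it.

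**Figure D2:**
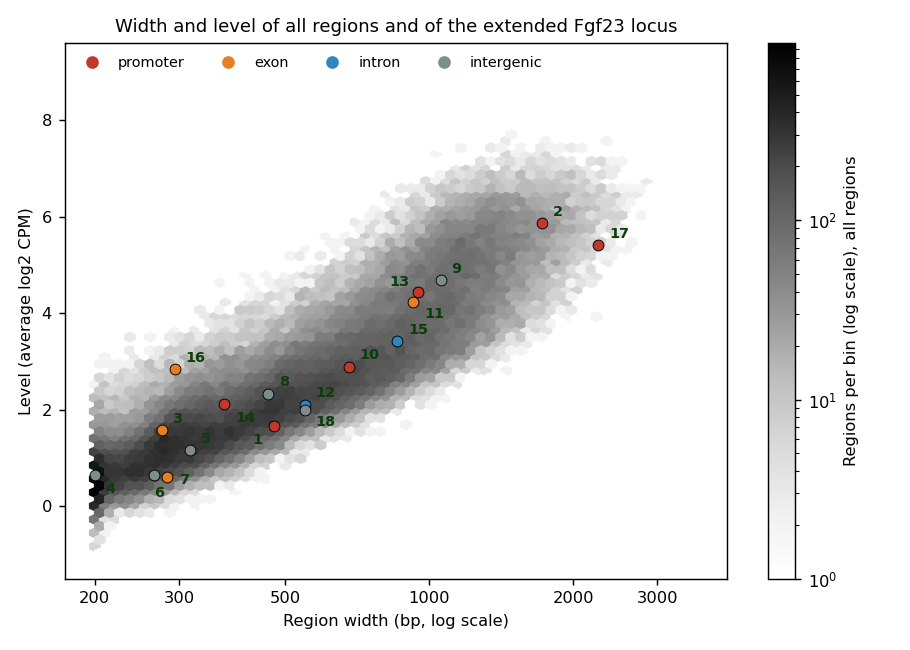
Level (average log2 CPM) against region width (bp, log scale) for all 94963 regions as grey bins, whose shade gives the number of regions on a log scale, and for the 18 numbered regions of the locus as points coloured by position relative to genes. Most points follow the cloud, region 16 lies near its upper edge and regions 1, 6, 7, 17 and 18 lie in its lower part.

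Of the 15 distal regions, 5 lay within 1000 bp of a transcript start, 3 in other exons, 2 in introns and 5 between genes. The promoter regions held 75.9% of the summed CPM of the 15 regions, the exonic regions 6.84%, the intronic regions 8.80% and the intergenic regions 8.44%. Over the whole list, promoter regions held 54.0% of the summed CPM. By number, 22.7% of all regions were at promoters, 6.73% in exons, 37.3% in introns and 33.3% between genes. With coding transcripts alone as promoters the count of 5 fell to 4, because region 14 is near the start of an antisense RNA.

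Region 2 was the highest of the window. It covered 1720 bp at chr6:126939155-126940874, at 5.87 log2 CPM or 58.3 CPM. It spans the first exons of Rad51ap1 and D6Wsu163e, a gene of little-known function, which run in opposite directions from this shared start. Its percentile among 1901 regions of similar width was 65.0. It alone held 26.1% of the summed CPM of the locus, and with region 17 the share was 45.1%.

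Region 17 covered the Ccnd2 promoter. It was 2255 bp wide at chr6:127149041-127151295, with a level of 5.41 log2 CPM or 42.4 CPM. It holds exon 1 of the main coding transcript of Ccnd2, which runs on the minus strand from position 127151060, and also the start of the antisense RNA 9330179D12Rik on the plus strand. It had 110 CpG dinucleotides, more than any other region of the locus, and a ratio of observed to expected CpG of 0.572 beside a median of 0.214 over all regions. For its width its level was below the median, with a percentile of 20.9 among only 441 regions of that size. With widths within 20% the percentile was 27.4, and on chromosome 6 alone it was 33.3, with a 95% interval of 18.6 to 52.2. The outermost annotated Ccnd2 start lies 1133 bp further upstream and was not covered.

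Region 13 covered the promoter of Tigar, which encodes a fructose bisphosphatase that lowers glycolytic flux. It was 947 bp wide at chr6:127109012-127109958, at 4.44 log2 CPM and the 71.4 percentile of its width class. It also overlaps exon 3 of the antisense RNA Platr31, so the signal of the genes cannot be told apart there. The region held 4 HRE cores and 1 RUNX site. The other promoter regions were lower: region 1 (chr6:126921310-126921783, 1.66 log2 CPM) lay 56 bp from the Dyrk4 start, in exon 1 of this kinase gene, and region 14 (chr6:127122446-127122818, 2.12 log2 CPM) lay 148 bp before the antisense RNA Gm43126 and past the 3′ end of Ccnd2. Their percentiles for width were 16 and 79.2.

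Of the 7 protein-coding genes in or reaching into the window, 6 had a region within 1000 bp of a transcript start, that is 85.7% beside 64.1% of all protein-coding genes. The exception was Fgf6. The nearest region to its single annotated start was region 6, whose edge lay 5136 bp upstream. Fgf23 and Fgf6 therefore differed in the list at their starts, with a region of 2.89 log2 CPM at Fgf23 and none at Fgf6. The list holds only regions that passed the peak and cut filters, so Fgf6 having none says that nothing at its start passed them.

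The 4 lowest levels of the window were at regions 4 to 7, which run from the stretch upstream of Fgf6 to its last exon. Region 8, 19.5 kb past the Fgf6 start and so nearer to it than regions 4 and 5, was higher, at 2.34 log2 CPM. Region 4 (chr6:126981938-126982137) was at 0.66 log2 CPM, region 5 (chr6:126986715-126987031) at 1.17, region 6 (chr6:127010185-127010450) at 0.64 and region 7 (chr6:127025347-127025629) at 0.61. The lowest of the other 14 regions was at 1.57 log2 CPM. Regions 4 to 6 were intergenic, 33.5, 28.7 and 5.3 kb upstream of Fgf6, and region 7 lay in its last exon, in the 3′ untranslated part. Together the 4 regions held 3.10% of the summed CPM of the locus, and the 78.8 kb from region 3 to region 8 had no other region.

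The low levels of regions 4 to 7 came with narrow widths, from 200 to 317 bp. Beside regions of similar width, region 4 stood at the 58.7 percentile, region 5 at 31.9, region 6 at 15.4 and region 7 at 8.12. Regions 6 and 7, the nearest to the Fgf6 start on either side, were thus low for their width as well, while region 4 was above the median of its class. Region 4 has the least width found in the list, 200 bp. No HRE core was found in any of the 4 regions. A RUNX site was found in regions 4, 5 and 7, and a TEAD site (GGAATG) in region 7. For regions this narrow the shares with an HRE core add up to 1.03 of 4 and those with a RUNX site to 1.13 of 4, so 0 with an HRE core is close to the background.

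**Figure D3:**
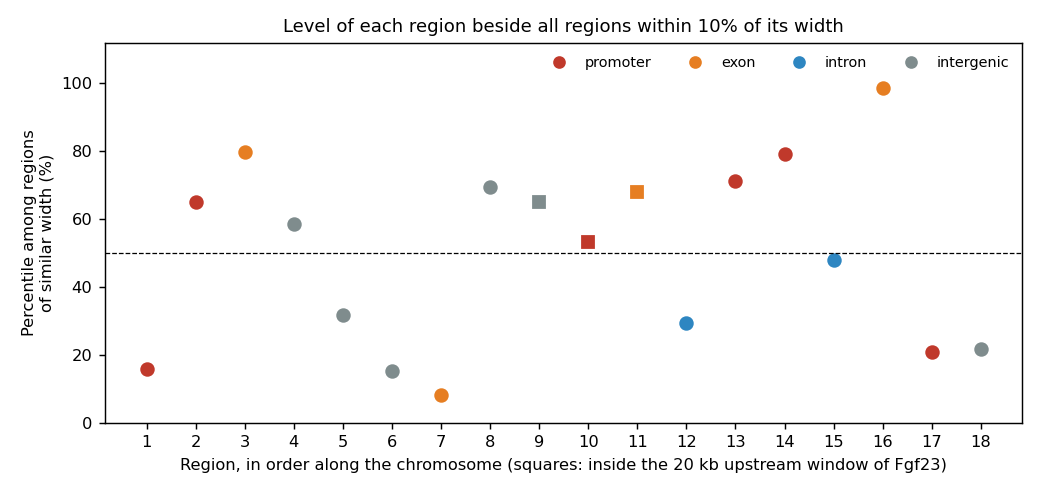
Share of all regions within 10% of the same width that had a lower level (percentile, %), for the 18 regions in order along the chromosome, coloured by position relative to genes, with a dashed line at 50. Region 16 is the highest at 98.8, region 7 the lowest at 8.12, and the 3 squares mark the reference regions at Fgf23.

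Between Fgf6 and the Fgf23 upstream window lay region 8, at chr6:127034859-127035319, 37.8 kb upstream of the Fgf23 start and 19.5 kb past the Fgf6 start. Its level was 2.34 log2 CPM, and its percentile was 69.5 among 9928 regions of similar width. It was separated from region 9 by 21.5 kb without a region. It is the only distal region outside promoters that had both an HRE core and an AP-1 site, and it had a RUNX site as well. The HRE core was 178 bp and the AP-1 site 126 bp from its midpoint, so both lay outside its central 200 bp. Of regions of similar width, 40.8% held an HRE core, 22% an AP-1 site and 43.3% a RUNX site.

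Downstream of Fgf23 the first distal region was region 12, in intron 2 of Tigar at chr6:127094531-127095079, 21.9 kb past the Fgf23 start. Its level was 2.11 log2 CPM and its percentile 29.3. None of the 8 motifs searched was found in it. Regions 6 and 14 also had none, which makes 3 of 15, where the shares of regions of similar width with none add up to 2.51.

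Beside its promoter, Ccnd2 had 2 regions within the gene. Region 15 (chr6:127141958-127142814) lay in intron 3 of the main transcript, 8.7 kb past its start, at 3.43 log2 CPM and the 47.8 percentile. Region 16 (chr6:127147741-127148034) lay in intron 2 of the main transcript, 3.2 kb past its start, at 2.85 log2 CPM. It is counted as exonic because a short single-exon Ccnd2 transcript covers it. Together with region 17 these regions held 27.1% of the summed CPM of the locus, compared with 27.5% for regions 2 and 3 at D6Wsu163e, 26.1% for region 2 alone, which Rad51ap1 shares, 11.7% for regions 10 and 11 within Fgf23 or at its start, 11.7% for the pair in Tigar and 0.684% for region 7 in Fgf6. The Ccnd2 share depends on the window, with 39.0% for a flank of 50 kb and 15.7% for 200 kb.

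Region 16 had the highest level for its width. It was 294 bp wide, and 98.8% of 12332 regions of similar width were lower. Per kb of width it had 4.61 on the log2 scale of CPM per kb, the second value of the distal regions after region 2 (5.08) and ahead of region 13 (4.52). Its CTCF match, shown above, began and ended on the plus strand at chr6:127147870-127147881, 12 bp from the region's midpoint. A CTCF match was present in 8.37% of regions of similar width.

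Among regions as wide as region 16, the 1031 with a match had a median of 1.62 log2 CPM and the 11301 without had 1.24. Region 16, at 2.85, exceeded 98.8% of either group. Region 3 (chr6:126955797-126956073), the other region with a match, lies in coding exon 9 of D6Wsu163e at 1.57 log2 CPM, and it exceeded 55.5% of the 915 similar regions with a match and 82.0% of the 10871 without. The match in region 3 is also on the plus strand, 11 bp from the midpoint.

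Upstream of Ccnd2 the window was nearly empty. Region 18 (chr6:127245794-127246342), 95.0 kb upstream of the main Ccnd2 start, was the only one, at 2.00 log2 CPM and the 21.9 percentile. The gap of 94.5 kb between regions 17 and 18 was longer than 96.0% of the 94942 gaps between neighbouring regions in the list. The other gaps of the locus ran from 1.0 to 25.9 kb, and the median of all gaps in the locus was 14.6 kb beside 8.2 kb over the list. The gap holds most of the antisense RNA 9330179D12Rik and 3 processed pseudogenes, and of coding genes only the 5′ end of Ccnd2 with its outermost start.

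The D-type cyclins, which share their function in G1, had different numbers of upstream regions. Within 100 kb upstream of its outermost start Ccnd2 had 1 region with 4.01 CPM, Ccnd1 had 15 with a summed 124 CPM, and Ccnd3 had 13 with 103 CPM. The median protein-coding gene had 6, and 77.1% of coding genes had more than Ccnd2, while 93.4% had fewer than Ccnd1. At the main starts, the promoter region was at 5.41 log2 CPM for Ccnd2, 3.44 for Ccnd1 and 3.41 for Ccnd3. These regions were 2255, 405 and 370 bp wide, and per kb of width the order was the reverse, with 4.23 for Ccnd2, 4.75 for Ccnd1 and 4.84 for Ccnd3 on the log2 scale of CPM per kb. Ccnd3 had a higher promoter region, at 5.69 log2 CPM, at another of its annotated starts. Ccnd1 and Ccnd3 had 3 promoter regions each, where Ccnd2 had 1. With 1 pooled value each, these levels carry no error.

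**Figure D4:**
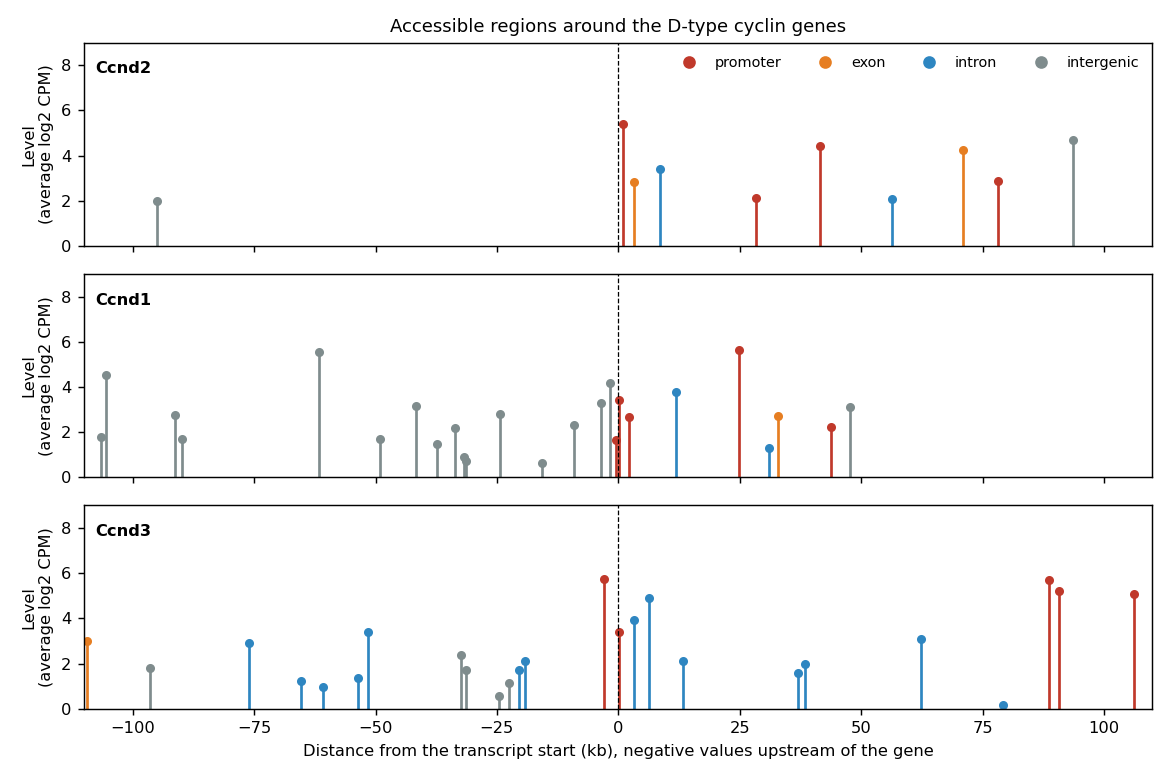
Level (average log2 CPM) of every region within 110 kb of the main transcript start of Ccnd2, Ccnd1 and Ccnd3, against the distance of its midpoint from that start in kb, drawn in the direction of transcription with negative values upstream. Colours give the position relative to genes. Upstream of Ccnd2 there is a single point, 95.0 kb away, while 15 regions lie within 100 kb upstream of Ccnd1 and 13 upstream of Ccnd3.

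Among the FGF ligands, 15 of 22 genes had a promoter region, 68.2% beside the 64.1% of all coding genes, so the family was near the background. Fgf6 shared the lack of one with Fgf3, Fgf4, Fgf10, Fgf16, Fgf17 and Fgf21. On the level scale, which is not adjusted for width, Fgf23 at 2.89 log2 CPM stood between Fgf1 (3.39) and Fgf22 (2.30), with 7 ligands above it and 7 below. Per kb of width it was at 3.45 on the log2 scale of CPM per kb, close to Fgf22 (3.46) and below Fgf15 (3.91), with 9 ligands above it and 5 below. By level alone its promoter region was higher than 31.4% of the promoter regions of coding genes, and that of Ccnd2 was higher than 74.8%. From 20 kb upstream to the gene end, Fgf23 had 3 regions, Fgf6 had 2 and Ccnd2 had 3, where the medians for genes of similar length were 2, 2 and 3.

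**Figure D5:**
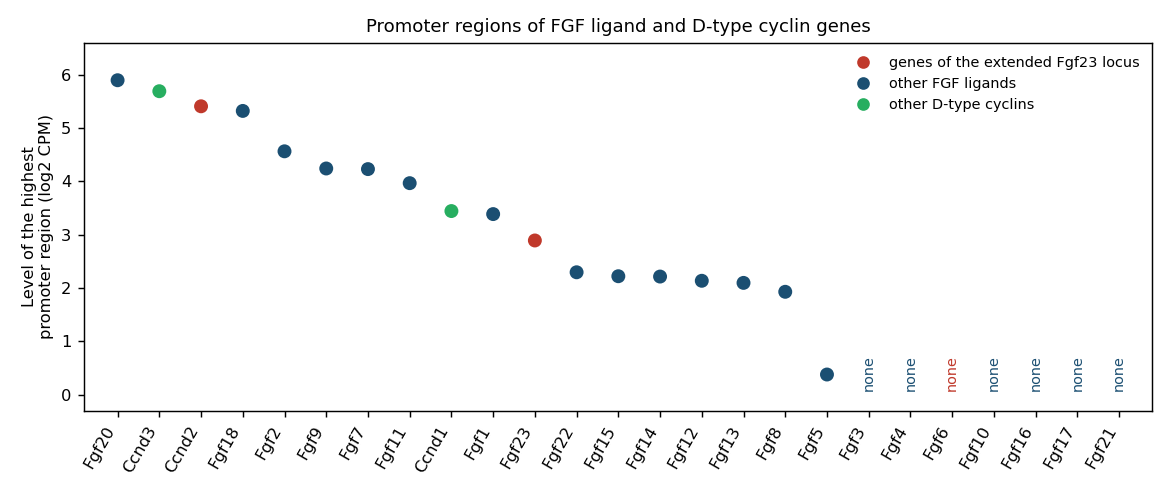
Level of the highest promoter region (average log2 CPM) of each FGF ligand and D-type cyclin gene, sorted from high to low and not adjusted for width, with the genes of the extended Fgf23 locus in red. Genes marked none had no region within 1000 bp of a transcript start. Fgf6 is among the 7 ligands marked none, and Fgf23 (2.89) lies below Ccnd2 (5.41).

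The stretches before the starts of Fgf6, Fgf23 and Tigar are shown to set a start without an accessible region beside those with one. They run from 250 to 11 bases before the start in the RefSeq promoter table for GRCm38.p6, on the strand of the gene, with each CpG in capitals. Of the 3 listed genes, 2 matched this table, Fgf6 and Fgf23, and of the 7 coding genes of the window 6 matched. Ccnd2 did not match.
Fgf6, chr6:127015292-127015531, plus strand: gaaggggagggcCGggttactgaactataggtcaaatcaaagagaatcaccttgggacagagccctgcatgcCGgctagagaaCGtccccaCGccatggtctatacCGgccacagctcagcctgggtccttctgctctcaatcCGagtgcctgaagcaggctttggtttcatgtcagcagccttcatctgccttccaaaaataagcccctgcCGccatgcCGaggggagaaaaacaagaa
Fgf23, chr6:127072652-127072891, plus strand: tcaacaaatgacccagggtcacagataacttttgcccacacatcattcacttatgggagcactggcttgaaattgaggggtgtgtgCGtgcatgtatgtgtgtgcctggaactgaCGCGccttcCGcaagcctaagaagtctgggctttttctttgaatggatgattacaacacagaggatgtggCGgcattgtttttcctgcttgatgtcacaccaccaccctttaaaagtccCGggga
Tigar, chr6:127109563-127109802, minus strand: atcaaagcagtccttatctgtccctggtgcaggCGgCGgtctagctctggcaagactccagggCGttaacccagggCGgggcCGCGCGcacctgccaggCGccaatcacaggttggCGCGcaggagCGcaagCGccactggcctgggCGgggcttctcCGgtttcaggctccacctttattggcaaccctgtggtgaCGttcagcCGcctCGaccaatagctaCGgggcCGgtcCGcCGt
Fgf6 had 8 CpG dinucleotides in this stretch, Fgf23 had 6 and Tigar had 21, beside a median of 5 over 32851 promoters. Fgf6, without a region, thus had more CpG than Fgf23, which had one. D6Wsu163e, not shown, also had 8 in this stretch and was covered by region 2. Dyrk4, not shown, had 4, and no region overlapped its stretch, though region 1 lay 56 bp from its start. An HRE core was present before Fgf6 and Fgf23, as in 37.4% of all promoters in the table, and a STAT motif (TTCNNNGAA) before Fgf23, as in 6.77%. Tigar had a RUNX site, as did 13.6%.

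For the HRE core, RUNX and TEAD motifs, the numbers of the 15 distal regions with a match were close to those for regions of similar width. For AP-1, STAT and CTCF the counts were small and, in proportion, further from them. An HRE core was found in 7 regions, where the shares of regions of similar width add up to 6.95, a RUNX site in 8 (6.35), an AP-1 site in 2 (3.2), a TEAD site in 4 (4.73), a STAT motif in 1 (2.55) and a CTCF match in 2 (0.851). The cAMP response element (TGACGTCA) and the vitamin D response element, taken as a direct repeat with a spacer of 3, were found in 0 regions, and the shares add up to 0.188 and 0.0222. All motifs were searched on both strands, and overlapping matches were counted as 1 site. Over the whole list, 46.2% of regions held an HRE core, 42.7% a RUNX site and 22.1% an AP-1 site.

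The wide promoter regions held most of the HRE cores, as regions of their width do. Of 19 cores in the distal regions, 15 lay in 4 of the 5 promoter regions, with 5 each in regions 2 and 17, 4 in region 13 and 1 in region 1. The other 4 were in 3 of the 10 remaining regions, namely 1 each in regions 3 and 8 and 2 in region 18. The mean numbers of cores in regions of similar width add up to 13.4 for the 5 promoter regions and 5.35 for the other 10. The palindrome CACGTG, looked at after the sites had been seen, was present in 3 of the 18 regions, regions 1, 8 and 9, and in 9.16% of all regions. Of the 15 distal regions 2 held it, where the shares of regions of similar width add up to 1.5. Of regions as wide as region 9, 18.1% held it. Regions 8 and 9 both lie between Fgf6 and Fgf23.

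The window as a whole had 53.5 regions per Mb, compared with 37.2 on chromosome 6 and 39.0 on the autosomes. The ratio to chromosome 6 was 1.44, with a 95% Poisson interval of 0.853 to 2.27 that covers counting error only. With a flank of 200 kb the ratio was 1.5 with an interval of 1.02 to 2.15, so whether the interval holds 1 turns on the flank chosen. Of 7100 tiles of the same length along the autosomes, 66.8% had fewer regions, with a median of 9, and 25.0% had a summed CPM as high as or higher than the 223 of the locus, with a median of 72.5. The Ccnd1 locus on chromosome 7, taken by the same rule around Ccnd1, Fgf15, Fgf4 and Fgf3, had 31 regions or 103 per Mb, with 253 summed CPM. Its highest level was 5.62 log2 CPM, beside 5.87 in the Fgf23 locus. In the Fgf23 locus Fgf23 had a promoter region and Fgf6 had none, and in the Ccnd1 locus Fgf15 had one and Fgf3 and Fgf4 had none.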

How the data were processed

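ATACseq was run on 11 MPC2 cultures, and 1 list of merged regions, which does not name the cultures behind it, was analysed. The authors trimmed reads with Trim Galore, aligned them to mm10 with Bowtie2, removed duplicates with Picard 2.17.8, called peaks with MACS2 2.2.7.1, merged peaks over samples, removed blacklisted regions, counted cuts with pyDNase, dropped regions with few cuts and normalised with TMM in edgeR 3.24.3. Merging widens a region to the union of its peaks. A Tn5 offset shift was not given in the sources used here. The deposited level of each region was read as average log2 CPM, inferred from the values: 460 of 94963 were below 0, and 2 to the power of the level summed to 1012761. No column of the list belonged to a single sample, so no test was run and depth per sample is unknown.

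Regions were joined to GENCODE vM21 genes, and 0 regions ran past a GRCm38 chromosome end. Regions within 1000 bp of a transcript start were promoter regions, then exon, intron and intergenic, in that order. The counting of motif sites and of regions in windows was checked on simulated data with known answers, which is not a test of the results. The regions named were all regions of the window, and the genes were those of the window, the FGF ligands, the D-type cyclins and the Ccnd1 locus. The members and lists were chosen with earlier results of these data known. Alternatives varied region width, joining, flanks, windows, width classes and motifs. Python 3.11.15, numpy 2.4.6, scipy 1.17.1 and matplotlib 3.10.9 were used.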

Additional observations from a re-analysis of the deposited data

How the results depend on the processing

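With regions at least 500 bp wide, the locus kept 9 regions (26.7 per Mb), 6 beyond the Fgf23 segment with a median of 3.94 log2 CPM and 0 at Fgf6, the Ccnd1 locus kept 13, and the share of summed CPM at Ccnd2 was 27.5%. A flank of 200 kb gave 30 regions, 27 beyond the segment, a median of 2.45, a share of 15.7% at Ccnd2 and 51 regions at the Ccnd1 locus, and a flank of 50 kb a median of 2.12 and a share of 39.0%. The median over all 18 regions, chosen after seeing the data, was 2.23. With 50 kb upstream, Fgf23 had 5 regions and Fgf6 had 4. In the central 200 bp, HRE cores were found in 4 distal regions and AP-1 sites in 0. Over whole regions, the palindrome CACGTG alone, chosen after seeing the data, was found in 2. Of 57 alternatives to counts, medians and shares, 37 stayed within the limits set for them and 20 moved outside them. A change of direction was not scored. Of 30 alternatives to the percentiles, 14 stayed within the 95% intervals set for them and 16 moved. With widths within 20%, 1 of 15 stayed within them, and on chromosome 6 alone 13 of 15. The largest moves were 6.58 points with widths within 20% and 12.5 points, at region 17, on chromosome 6 alone. Under each, 14 of 15 percentiles stayed on the same side of 50. Region 15 was the exception under both, at 50.1 and 51.1. Leaving out a replicate, and the differences between drug and vehicle or between cell stages, could not be run on a pooled list. No paired analysis was possible because levels were pooled over the cultures. Differences between cultures, and stretches that did not pass the authors' filters, cannot be seen in these values.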

Other observations

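Region 16 in Ccnd2 and region 3 in D6Wsu163e carried CTCF matches on the same strand, which began at chr6:127147870 and chr6:126955919. The midpoint of region 3 lies 195.1 kb from the main Ccnd2 start, and that of region 16 lies 3.2 kb from it. The share of repeat-masked bases in the 15 distal regions ranged from 0% in regions 6, 7 and 14 to 21.7% in region 12, with a median of 7.58% beside 8.99% over the list, so no distal region consists mostly of repeats. Region 9, one of the reference regions, had 23.9%. GC content of the distal regions had a median of 51.5%, beside 49.8% over the list.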
